A study of Mus musculus with 60 samples.

Results

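This account follows 10 genes whose nascent RNA was lower after CTCF was removed from mouse embryonic stem cells (mESCs): Lrrc59, Tex261, Traf6, Zbtb39, Gfm1, Aars2, Mrm1, Fmc1, Dhrs13 and Mdp1. They are 10 of the 27665 transcripts counted in the series and were taken by symbol, through the GENCODE M21 name of each Ensembl transcript. All 10 passed the filter on low counts in every comparison. The list was proposed with results of these data known, and its genes appear to have been chosen by their fold changes after CTCF depletion. All 10 were at least 1.5-fold lower after depletion of wild-type CTCF and, at 2 h, of the YF-AA mutant, and none passed the test as lower under A-485, so values of those contrasts are given as a description and support nothing here. What could be tested are the contrasts of a line with truncated CTCF, the loss of RAD21, and direct comparisons between treatments. How the genes were chosen is not stated in full, so it is an assumption that AGB1, itself a depletion of a CTCF protein, took no part in it.

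CTCF is a zinc-finger protein that binds a long DNA motif. It stops the loop-extruding cohesin complex, of which RAD21 is a subunit, and some promoters also carry CTCF immediately upstream of the start site. The genes studied here encode proteins of varied function: an ER membrane protein that binds ribosomes (LRRC59), an ER membrane protein of the early secretory pathway (TEX261), the ubiquitin ligase of Toll-like and interleukin-1 receptor signalling (TRAF6), a BTB zinc-finger protein (ZBTB39), mitochondrial elongation factor G (GFM1), mitochondrial alanyl-tRNA synthetase (AARS2), a methyltransferase of mitochondrial ribosomal RNA (MRM1), an assembly factor of ATP synthase (FMC1), a short-chain dehydrogenase (DHRS13) and a magnesium-dependent phosphatase (MDP1).

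EU-seq was used to measure nascent RNA: cells took up 0.5 mM 5-ethynyl uridine for 20 min, and the labelled RNA was captured and sequenced. The mESC lines are labelled E14, and RAD21-AID neural progenitor cells (NPCs) were also used. All had degrons edited into the endogenous genes, so that controls carry the tagged alleles too and the line and its clone cannot be told apart. CTCF-AID cells carry CTCF fused to an auxin-inducible degron and received 500 µM IAA for 6 h (4 control and 4 treated libraries, 2 of each with and 2 without strand information). YF-AA cells carry on both alleles a CTCF with 2 substitutions that weaken cohesin binding, fused to a dTAG degron, and received dTAG13 (200 nM per the labels) for 2 h or 4 h (2 control libraries and 2 at each time). In the bTAG-ΔN-CTCF/dTAG-CTCF-ΔC line, called ΔN/ΔC line below, one allele lacks the N-terminal region and is degraded by AGB1, and the other lacks the C-terminal region and is degraded by dTAG13, so no full-length CTCF is present even in its controls. It received 100 nM AGB1, 100 nM dTAG13 per the labels (200 nM per the column names), or both agents for 2 h (2 libraries of each and 2 controls). RAD21-AID mESCs received IAA for 4 h in an initial experiment (2 control and 2 treated libraries) and an additional one (12 and 12), and RAD21-AID NPCs received IAA for 1, 2 or 4 h or 10 µM A-485 for 1 h, which blocks histone acetylation by CBP and p300 (2 libraries of each and 2 controls).

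Libraries held 4027449 to 21898781 counts over whole genes, with 7733060 to 11633383 in the ΔN/ΔC line. Nascent Ctcf RNA averaged 289 CPM (counts scaled to library size) in ΔN/ΔC controls and 287 CPM after AGB1, and as the degrons act on the protein, RNA does not check the depletion. The 9 markers of naive mESCs summed to 3667 to 5366 CPM in mESC controls and 85.8 to 92.4 CPM in NPC controls, and the 8 NPC markers to 64.0 to 124 CPM and 1091 to 1143 CPM. The naive sum also moved with treatment, from 4406 to 4437 CPM in ΔN/ΔC controls to 4268 to 4278 CPM after AGB1 and 4029 to 4073 CPM after both agents, and from 5155 to 5294 CPM in YF-AA controls to 4758 to 4776 CPM after 2 h. Its part in the results was not tested. In bulk libraries, fewer cells of a type and less RNA per cell cannot be told apart. The labels do not say that replicates were separate cultures, and the paper calls those of EU-seq after CTCF depletion biological replicates. The p-values measure the spread between libraries, estimated partly over all genes together, which may be technical where cultures were not separate. The degrees of freedom were 28018 for YF-AA at 2 h, 28444 for YF-AA at 4 h against 2 h and 30354 for the initial RAD21 experiment. In these contrasts the p-values, standard errors and intervals rest almost wholly on the spread over all genes, and a gene's own spread hardly enters.

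The promoters of the genes are shown because CTCF can bind immediately upstream of a start site. From RefSeq's promoter windows (GRCm38.p6, 250 bases before to 50 bases after each start, 32851 windows in all), the 106 bases from 150 to 45 bases before the start are printed for the 4 genes with a same-strand match to AGNNGGCNC, the letters at one end of the CTCF motif, and for Tex261 and Zbtb39, which fell most after AGB1 and had no match. Capitals mark the matches:
Lrrc59 (chr11:94629627-94629732, plus strand): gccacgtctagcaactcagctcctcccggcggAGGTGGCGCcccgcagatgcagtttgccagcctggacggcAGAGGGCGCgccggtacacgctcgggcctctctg
Gfm1 (chr3:67429965-67430070, plus strand): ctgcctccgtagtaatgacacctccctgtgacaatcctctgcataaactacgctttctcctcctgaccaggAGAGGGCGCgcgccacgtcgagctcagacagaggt
Fmc1 (chr6:38534711-38534816, plus strand): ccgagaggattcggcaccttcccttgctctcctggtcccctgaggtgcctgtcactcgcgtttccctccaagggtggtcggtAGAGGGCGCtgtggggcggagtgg
Dhrs13 (chr11:78032163-78032268, plus strand): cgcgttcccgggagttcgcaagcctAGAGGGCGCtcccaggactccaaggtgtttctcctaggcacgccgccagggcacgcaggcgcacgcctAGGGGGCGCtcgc
Tex261 (chr6:83775857-83775962, minus strand): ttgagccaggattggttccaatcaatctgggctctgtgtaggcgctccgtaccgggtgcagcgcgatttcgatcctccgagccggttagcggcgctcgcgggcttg
Zbtb39 (chr10:127739380-127739485, plus strand): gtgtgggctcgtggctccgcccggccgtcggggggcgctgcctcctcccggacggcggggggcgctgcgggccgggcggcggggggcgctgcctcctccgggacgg

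The match began 118 and 78 bases before the start in Lrrc59, 79 in Gfm1, 68 in Fmc1, and 125 and 57 in Dhrs13. Aars2 held 1 on the opposite strand. In all, 5 of 10 genes had a match to AGNNGGCNC on either strand, against 23.4% of the 27025 genes with a window. The full CTCF core consensus was in 0 of 10 and in 1.61% of all genes. Both searches allowed no mismatch, so a near match counts as none, and 0 of 10 does not mean that these promoters lack a CTCF motif. A match is a description of the letters and says nothing of binding, and the absence of one says only that these letters are not in the window.

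The genes differ in level. Per kb of counted gene, Lrrc59 stood highest in ΔN/ΔC controls at 15.7 ± 0.56 CPM per kb (SD, n = 2). Zbtb39 at 2.98 ± 0.21 and Tex261 at 2.85 ± 0.27 CPM per kb came next and did not differ beyond their spread, then Aars2 at 2.30 ± 0.030. Gfm1, Traf6, Mdp1 and Fmc1 followed at 1.84 to 1.57 CPM per kb, each within the spread of its neighbour, and Mrm1 and Dhrs13 were lowest at 1.37 and 1.04. The low level and short span of Mdp1 gave it 17 to 48 counts per library in this line, and Dhrs13 had 45 to 73, which limits what can be seen for them.

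Loss of the ΔN protein lowered 6 of the 10 genes within 2 h, and loss of the ΔC protein lowered none. Lrrc59, Tex261, Traf6, Zbtb39, Gfm1 and Aars2 passed the test after AGB1 (two-sided, edgeR quasi-likelihood, adjusted p under 0.05 over all genes tested). For comparison, 1.49% of the 13619 genes tested were called lower. The 10 genes had a median log2 change of −0.85 and all genes tested one of 0.01. Here and below the median change over expressed genes was subtracted from each log2 fold change, while p-values test the change before that step.

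**Figure D1:**
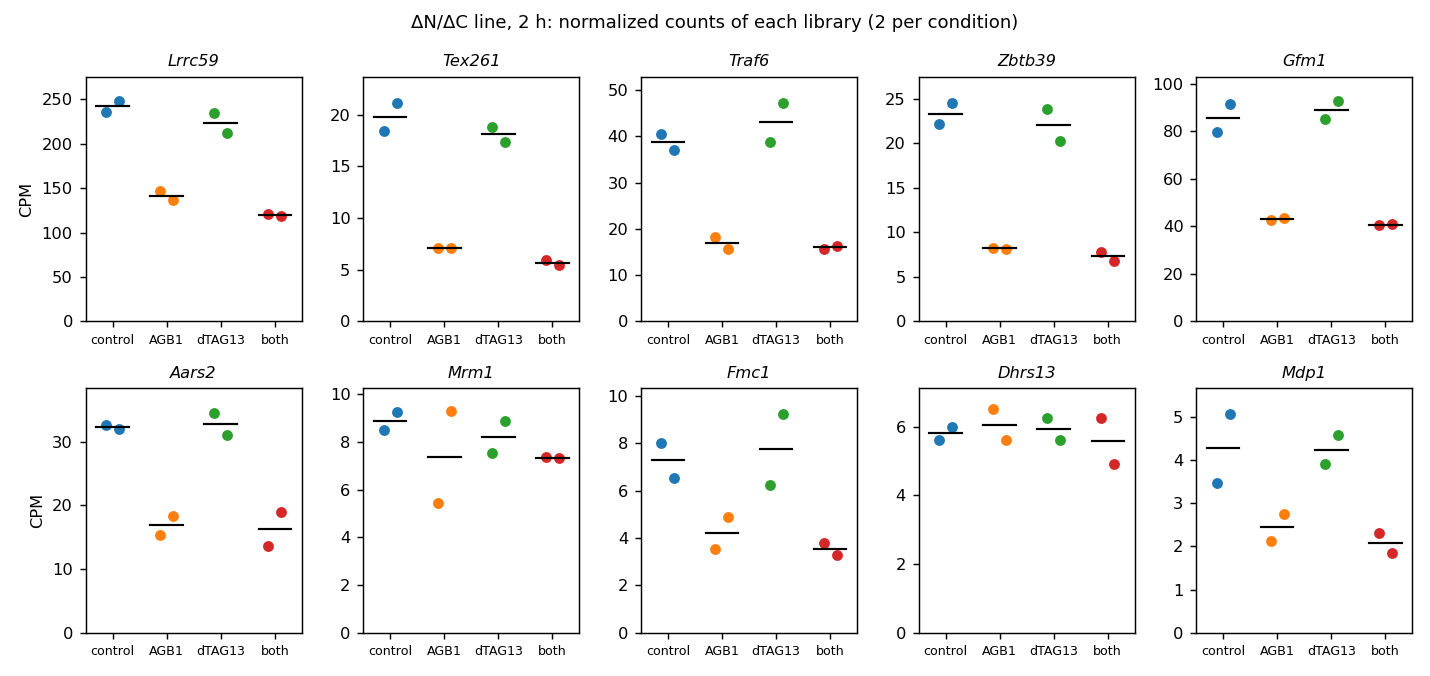
Normalized counts (CPM, linear axis from 0) of each gene in the 8 libraries of the ΔN/ΔC line after 2 h. Points are single libraries and bars the mean of the pair; both AGB1 and both combined libraries lie below the controls for Lrrc59, Tex261, Traf6, Zbtb39, Gfm1 and Aars2, while Dhrs13 stays between 4.91 and 6.50 CPM throughout.

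Lrrc59, the ribosome-binding ER protein, measured 236 and 248 CPM in the controls, 146 and 137 after AGB1, 234 and 213 after dTAG13, and 121 and 119 after both agents. The AGB1 libraries lay below every control and dTAG13 library. Its log2 fold change after AGB1 was −0.77 ± 0.05 (standard error; adjusted p = 2.05e-11), and after both agents −1.01 ± 0.06 (adjusted p = 3.8e-16).

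Tex261, of the early secretory pathway, measured 18.4 and 21.1 CPM in controls, 7.09 and 7.15 after AGB1, 18.8 and 17.3 after dTAG13 and 5.92 and 5.46 after both. Groups with AGB1 did not overlap those without it. It fell by 1.47 on the log2 scale after AGB1 (standard error 0.16, adjusted p = 9.23e-08), to 36.2% of control, and by 1.79 after both (standard error 0.17, adjusted p = 2.62e-10).

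Traf6 measured 40.4 and 37.0 CPM in controls, 18.2 and 15.6 after AGB1, 38.7 and 47.3 after dTAG13 and 15.7 and 16.4 after both. The second dTAG13 library was the highest of the 8, and the libraries with AGB1 lay together below all others. The log2 fold changes were −1.19 ± 0.11 after AGB1 (adjusted p = 7.2e-09) and −1.27 ± 0.11 after both (adjusted p = 6.82e-11).

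Zbtb39 measured 22.1 and 24.5 CPM in controls, 8.28 and 8.17 after AGB1, 23.8 and 20.2 after dTAG13 and 7.81 and 6.77 after both. With AGB1 in the medium all 4 libraries were below the rest. Its change after AGB1 was the lowest of the 10 genes, at −1.50 ± 0.14 (adjusted p = 9.95e-09), next to Tex261, whose interval overlaps it. After both agents it was −1.67 ± 0.15 (adjusted p = 1.38e-10).

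The mitochondrial translation genes Gfm1 and Aars2 had changes of similar size. Gfm1 measured 79.5 and 91.5 CPM in controls, 42.6 and 43.6 after AGB1, 85.3 and 92.5 after dTAG13 and 40.4 and 41.0 after both. Aars2 measured 32.5 and 31.9 CPM, then 15.4 and 18.4, 34.4 and 31.0, and 13.6 and 18.9 in the same order. In both genes the libraries with AGB1 were separate from those without. The change after AGB1 was −0.98 ± 0.08 for Gfm1 (adjusted p = 1.91e-10) and −0.92 ± 0.12 for Aars2 (adjusted p = 2.37e-06). After both agents Gfm1 was at −1.07 ± 0.08 and Aars2 at −1.01 ± 0.13 (adjusted p = 6.13e-13 and 2.97e-07).

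Mrm1, which acts on the ribosomal RNA of the same mitochondrial ribosome, was not called. Its controls measured 8.49 and 9.25 CPM, its AGB1 libraries 5.44 and 9.29, the dTAG13 libraries 7.54 and 8.86 and those with both agents 7.38 and 7.32. The AGB1 pair spanned the controls, whereas the pair with both agents lay below them. The log2 change after AGB1 was −0.24 ± 0.21, with a 95% interval of −0.67 to 0.19 (adjusted p = 0.734).

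Fmc1 and Mdp1 had negative estimates with wide errors. Fmc1 measured 8.01 and 6.54 CPM in controls, 3.55 and 4.90 after AGB1, 6.24 and 9.24 after dTAG13 and 3.77 and 3.28 after both. Mdp1 measured 3.47 and 5.08 CPM, then 2.13 and 2.76, 3.90 and 4.57, and 2.32 and 1.86. In both genes the libraries with AGB1 lay below the controls. After AGB1 the change was −0.76 ± 0.24 for Fmc1 (95% interval −1.24 to −0.28, adjusted p = 0.103) and −0.79 ± 0.31 for Mdp1 (interval −1.42 to −0.17, adjusted p = 0.249), so neither passed the test over all genes, and neither interval holds 0. After both agents both were called, Fmc1 at −1.03 ± 0.24 (adjusted p = 0.00398) and Mdp1 at −1.02 ± 0.31 (adjusted p = 0.0368). The call of Fmc1 was lost without the first control library (adjusted p = 0.106), and that of Mdp1 without the second control (0.395) or without the first (0.0600) or the second (0.156) library with both agents.

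Dhrs13 did not follow the other genes. It measured 5.62 and 5.98 CPM in controls, 6.50 and 5.62 after AGB1, 6.24 and 5.62 after dTAG13 and 6.26 and 4.91 after both. Every pair overlapped or touched the controls. The change was 0.06 ± 0.22 after AGB1 (95% interval −0.39 to 0.51) and −0.04 ± 0.23 after both agents (interval −0.50 to 0.42), an interval whose lower end lies above the estimates of 8 other genes. Its promoter window holds 2 of the matches printed above.

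After dTAG13 none of the 10 genes was called, against 0.0808% of all genes tested in either direction. An unadjusted p under 0.05 was found for 1 of 10, beside 530 of all 13618 genes tested. It was Lrrc59, at −0.12 ± 0.06 (its interval ends just below 0). DESeq2 also called 0. The estimates ran from −0.13 for Tex261 to 0.17 for Traf6, whose interval was −0.03 to 0.37. A fall as large as that after AGB1 lies outside the dTAG13 interval for each of the 6 called genes.

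Set directly against dTAG13, AGB1 gave a called lower value for those 6 genes (1.37% of all genes were called lower). In 8 genes both AGB1 libraries lay below both dTAG13 libraries. How many of all genes did so was not counted, so nothing is read from that number. The differences were −1.41 ± 0.15 for Zbtb39 (adjusted p = 1.63e-05), −1.36 ± 0.12 for Traf6 (1.81e-06), −1.34 ± 0.15 for Tex261 (3.98e-05), −1.05 ± 0.07 for Gfm1 (2.09e-07), −0.94 ± 0.12 for Aars2 (0.000118) and −0.66 ± 0.06 for Lrrc59 (1.33e-06). Fmc1 at −0.89 ± 0.24 did not pass (adjusted p = 0.0961) but did without the first dTAG13 library (−1.11, adjusted p = 0.00133), Mdp1 was at −0.79 ± 0.28 (adjusted p = 0.272), and Dhrs13 at 0.04 ± 0.21.

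With both agents 8 of 10 genes were called lower, against 4.55% of all genes. All 8 were at least 2-fold lower. Between both agents and AGB1 alone all 10 estimates were negative, with a median of −0.13 (−0.006 over all genes). Only Lrrc59 was called lower, by 0.24 on the log2 scale (standard error 0.05, adjusted p = 0.0294), where 0.567% of all genes were. That call was lost when the first (adjusted p = 0.420) or second (0.198) AGB1 library was left out, and in DESeq2 (0.561). For Tex261 the difference was −0.32 ± 0.21 (adjusted p = 0.582). For the other genes called after both agents the difference between the treatments ran from −0.27 to −0.08, and none passed. These comparisons share the AGB1 libraries.

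**Figure D2:**
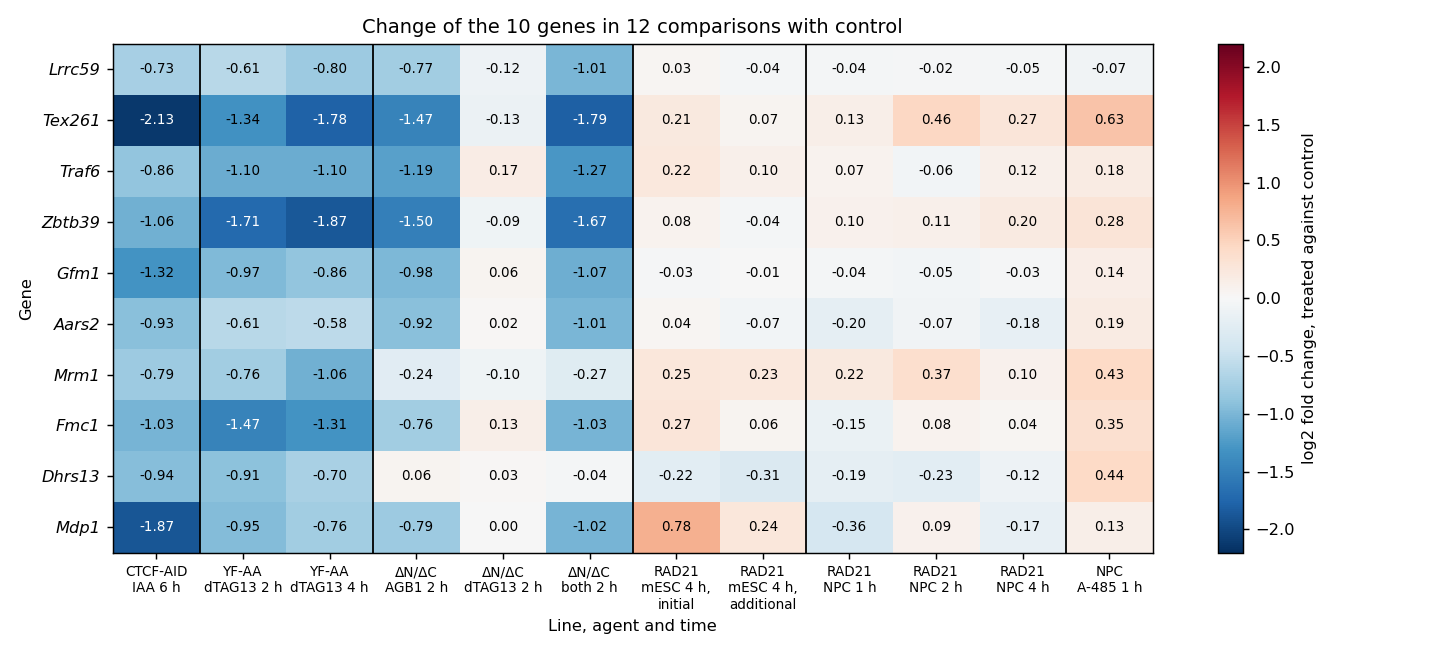
Log2 fold change of each gene (rows) in 12 comparisons of treated with control libraries (columns); blue is lower, red is higher, and the numbers are the values. The first 6 columns are the CTCF lines, where the values run from −2.13 to 0.17, and the others are RAD21 loss and A-485, where they run from −0.36 to 0.78.

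In CTCF-AID cells all 10 genes were at least 1.5-fold lower after 6 h of IAA, as were 3.36% of all genes. These values took part in the choice of the genes. Tex261 fell furthest, from 24.4 and 25.8 CPM to 5.29 and 5.00 in unstranded libraries and from 33.8 and 23.4 to 6.78 and 7.01 in stranded ones, a log2 change of −2.13 ± 0.15. Mdp1 went from 13.7, 11.2, 13.5 and 7.94 CPM to 3.57, 2.05, 4.02 and 2.78, a change of −1.87 ± 0.27. Within each library type every treated library of these genes was below its controls.

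Gfm1 followed at −1.32 ± 0.13, from 93.6 and 92.0 CPM to 46.9 and 42.4 unstranded, and from 92.3 and 101 to 31.1 and 30.2 stranded. Zbtb39 was at −1.06 ± 0.09, Fmc1 at −1.03 ± 0.17, Dhrs13 at −0.94 ± 0.32, Aars2 at −0.93 ± 0.12, Mrm1 at −0.79 ± 0.11 and Lrrc59 at −0.73 ± 0.15. In Dhrs13 the stranded groups overlapped, with controls at 8.41 and 4.90 CPM and treated libraries at 5.27 and 1.95. Same-numbered libraries of this line deviated together, and each treated Dhrs13 library was below the control of its number. The errors given for this line are from a fit without that pairing.

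Traf6 was at least 1.5-fold lower in this line only with 1 outlying library included. It measured 60.1, 66.3, 55.2 and 47.0 CPM in controls and 38.3, 47.9, 35.0 and 8.79 CPM after IAA, the last being the second stranded library. All treated libraries were below the controls of their type. With it the log2 change was −0.86 ± 0.37, without it −0.51, and then 9 of 10 genes were at least 1.5-fold lower.

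**Figure D3:**
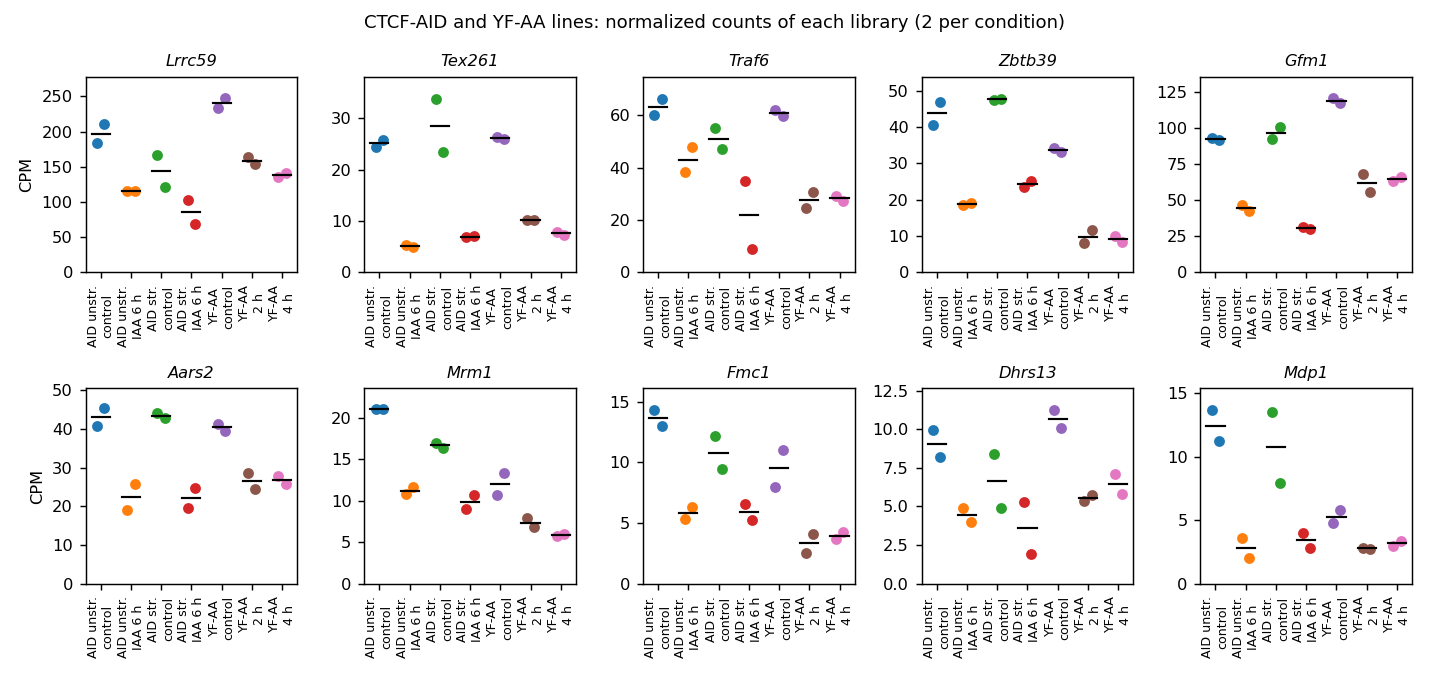
Normalized counts (CPM, linear axes from 0) of each gene in the libraries of the CTCF-AID line, unstranded and stranded, and of the YF-AA line. Points are single libraries and bars the mean of a pair; the outlying treated point of Traf6, at 8.79 CPM, is the second stranded IAA library.

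The YF-AA mutant gave the same direction within 2 h of dTAG13, again in a contrast that took part in the choice. All 10 genes were at least 1.5-fold lower, against 2.75% of all genes. In each of the 10 both treated libraries lay below both controls, which was not counted over all genes. Zbtb39 fell furthest, from 34.3 and 33.1 CPM to 7.92 and 11.5, a log2 change of −1.71 ± 0.18. Fmc1 went from 8.00 and 11.03 CPM to 2.56 and 4.07 (−1.47 ± 0.33).

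Tex261 went from 26.3 and 25.9 CPM to 10.2 in both libraries (−1.34 ± 0.20). Traf6, with no outlying library here, went from 62.3 and 59.8 CPM to 24.5 and 30.7 (−1.10 ± 0.13). Gfm1 went from 121 and 117 CPM to 68.0 and 55.5 (−0.97 ± 0.09). In all 3 genes the treated pair stood well apart from the controls.

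Mdp1 was at −0.95 ± 0.41, from 4.75 and 5.81 CPM to 2.80 and 2.75. Dhrs13, not called in the ΔN/ΔC line, was at −0.91 ± 0.30, from 11.3 and 10.1 CPM to 5.36 and 5.72. Mrm1, also not called there, was at −0.76 ± 0.27, from 10.8 and 13.4 CPM to 7.92 and 6.82. Lrrc59 and Aars2 changed least, both at −0.61, from 234 and 248 CPM to 164 and 154 and from 41.3 and 39.6 to 28.6 and 24.5.

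At 4 h, 9 of 10 genes were at least 1.5-fold lower (2.84% of all genes), with Aars2 at −0.58 ± 0.13 the exception, and Zbtb39 was again lowest at −1.87 ± 0.17 (10.1 and 8.33 CPM). Between 2 and 4 h no gene of the 10 changed by the test, against 0.127% of all genes in either direction, and DESeq2 called 0. Of all 14222 genes tested, 1115 had an unadjusted p under 0.05. The 1 among the members was Lrrc59, at −0.19 ± 0.07 (136 and 141 CPM at 4 h, adjusted p = 0.36). For Tex261, at 7.84 and 7.28 CPM, the difference was −0.44 ± 0.26 with an interval of −0.94 to 0.07.

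**Figure D4:**
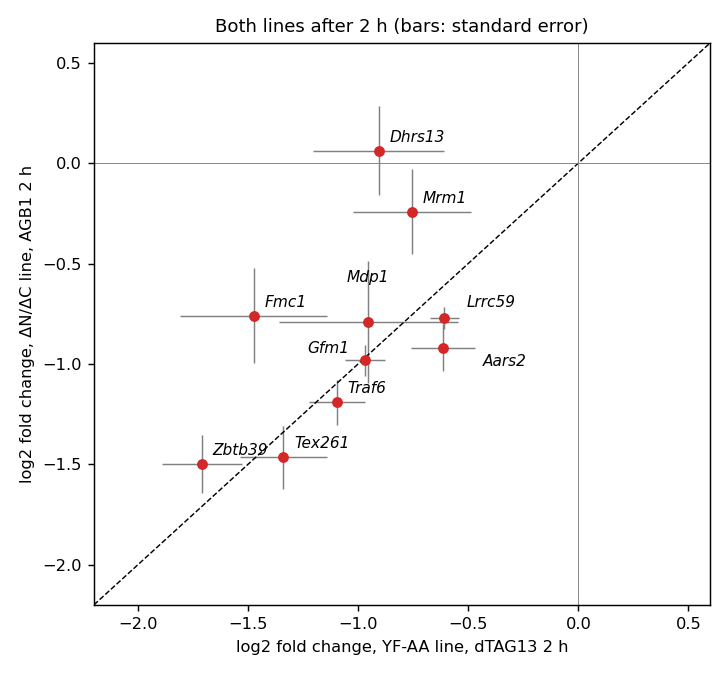
Log2 fold change after AGB1 in the ΔN/ΔC line (vertical) against that after dTAG13 in the YF-AA line (horizontal), both at 2 h, with standard errors as bars and the line of equal change dashed. Dhrs13, Fmc1 and Mrm1 stand furthest above the line, at 0.06, −0.76 and −0.24 against −0.91, −1.47 and −0.76, with errors that leave none of the differences called.

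Whether the 2 h change differed between the ΔN/ΔC line and the YF-AA line was tested as an interaction over 8 libraries. It called none of the 10 genes, against 0.376% of all genes in either direction, and DESeq2 called 0. An unadjusted p under 0.05 was found for 1 of the 10, beside 1093 of all 14636 genes tested. That gene was Dhrs13, with a difference of 0.96 ± 0.37 (interval 0.22 to 1.69). For Mrm1 the difference was 0.52 ± 0.33 and for Fmc1 0.71 ± 0.41. The YF-AA side took part in the choice of genes, so nothing is read from this count, and the lines also differ in library type, which cannot be told apart from the line.

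Controls of the YF-AA and CTCF-AID lines differed at some of the genes. Between untreated YF-AA and untreated CTCF-AID cells (unstranded libraries, which also serve the contrasts above), Mdp1 at −1.17 (adjusted p = 0.00115), Mrm1 at −0.74 (0.0035) and Zbtb39 at −0.36 (0.042) were lower in YF-AA, and Gfm1 at 0.38 (0.000634) and Lrrc59 at 0.31 (0.00204) were higher. These are 3 and 2 of 10, against 23.2% of all genes called lower and 24.5% called higher. Mdp1 controls measured 4.75 and 5.81 CPM in YF-AA and 13.7 and 11.2 in CTCF-AID. The call of Zbtb39 was lost without the second CTCF-AID control (adjusted p = 0.270) and without the first (0.0717) or second (0.203) YF-AA control and in DESeq2 (0.164), and that of Lrrc59 without the second YF-AA control (0.0536).

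After loss of RAD21 none of the 10 genes was called lower in the initial mESC experiment, where 5.23% of all genes were, a share at which 0 of 10 sets the genes apart from no others. Mdp1 rose, from 4.51 and 5.32 CPM to 8.26 and 8.65, a log2 change of 0.78 ± 0.21 (edgeR, adjusted p = 0.00593), where 3.4% of all genes were called higher. Its treated libraries lay above both controls, on 45 to 95 counts. The call was lost without the first control (adjusted p = 0.0511), the first (0.0684) or the second (0.154) treated library, and in DESeq2 (0.142). Naive mESC markers summed to 3667 to 3720 CPM in these controls and 3083 to 3084 CPM after IAA, and their part was not tested.

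The 9 other genes lay between −0.22 and 0.27 in that experiment. Traf6 went from 43.3 and 44.6 CPM to 51.8 and 50.7 (0.22 ± 0.09, adjusted p = 0.119), Mrm1 from 22.03 and 21.94 to 27.5 and 24.8 (0.25 ± 0.12, adjusted p = 0.212), and Tex261 from 19.3 and 15.8 to 20.9 and 19.4 (0.21 ± 0.13). Lrrc59 and Gfm1 had the narrowest intervals, −0.11 to 0.18 and −0.17 to 0.12.

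The additional experiment, with 12 libraries a group, resolved smaller changes. Its naive markers summed to 4476 to 4661 CPM in controls and 3857 to 4001 CPM after IAA. Mdp1 was again higher, at a median of 9.55 CPM in controls (8.44 to 11.8) and 11.3 after IAA (10.1 to 13.9), a change of 0.24 ± 0.06 (adjusted p = 0.000343). Mrm1 went from a median of 21.96 CPM (19.2 to 25.3) to 25.9 (23.5 to 28.0), a change of 0.23 ± 0.04 (adjusted p = 4.06e-06), and Traf6 from 56.1 (51.1 to 58.9) to 59.3 (56.1 to 63.4), a change of 0.10 ± 0.03 (adjusted p = 0.00148). These 3 are the members called higher, where 31% of all genes were. In each the groups overlapped.

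Called lower were Dhrs13, Aars2 and Lrrc59, 3 of 10 where 27.4% of all genes were. Dhrs13 fell from a median of 10.7 CPM (8.91 to 12.1) to 8.52 (6.21 to 10.2), by 0.31 on the log2 scale (standard error 0.06, adjusted p = 2.76e-05). Aars2 at −0.07 ± 0.03 (adjusted p = 0.043) and Lrrc59 at −0.04 ± 0.02 (adjusted p = 0.0438) were close to the threshold, and the interval of Lrrc59 after subtraction of the median holds 0. The call of Aars2 was lost without the 2 libraries of the batch labelled CC52 (adjusted p = 0.0782). Tex261, Gfm1, Zbtb39 and Fmc1 were between −0.04 and 0.07 and were not called. The lowest of the 10 values, that of Dhrs13, was smaller in size than any of the 10 changes in CTCF-AID or YF-AA cells. Those changes took part in the choice of the genes and come from other lines, so nothing is read from this.

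**Figure D5:**
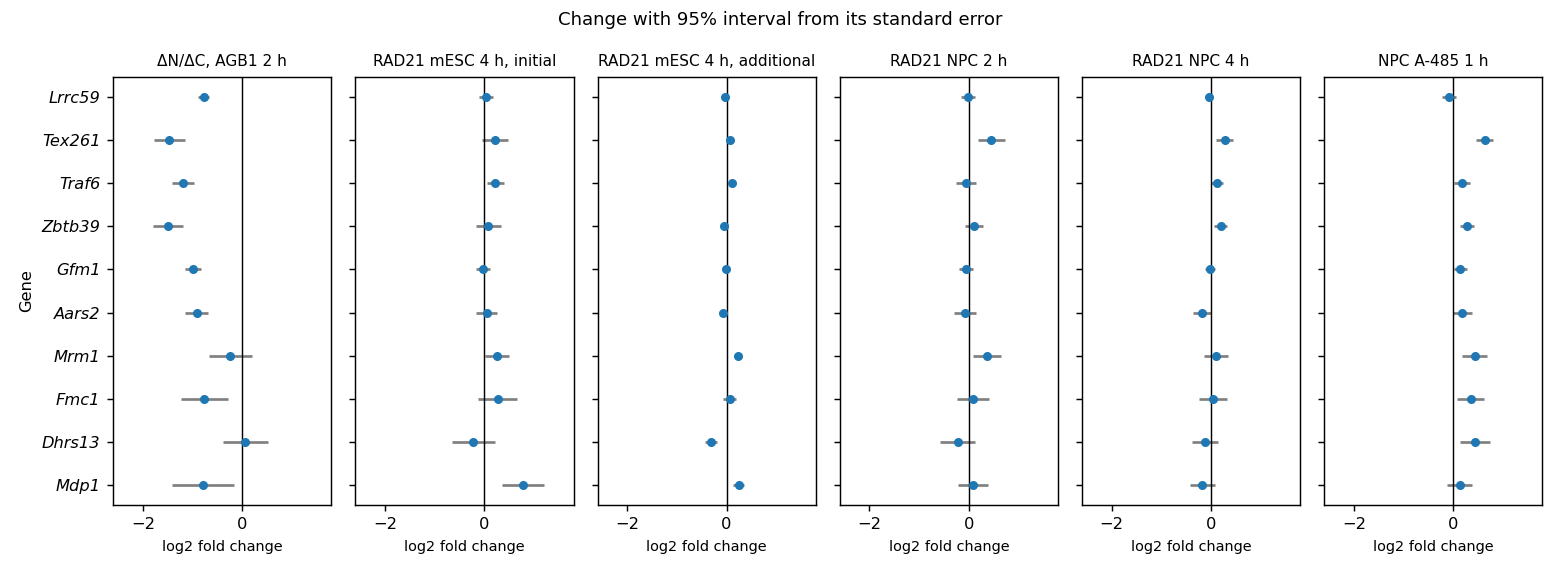
Log2 fold change of each gene with its 95% interval in 6 comparisons: AGB1 in the ΔN/ΔC line, RAD21 loss in mESCs and in NPCs, and A-485 in NPCs. The vertical line marks no change; 8 of the 10 intervals after AGB1 end below it.

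The difference between the YF-AA line and the RAD21-AID line at 4 h was fitted as an interaction. Since the genes were chosen as lower after YF-AA depletion, 1 side of it was largely fixed by the choice, and nothing is read from the 9 of 10 genes called lower or the 3.56% of all genes. As a description, the differences (YF-AA minus RAD21-AID, log2) ran from −1.995 ± 0.23 for Tex261 to −0.48 ± 0.34 for Dhrs13. The agent cannot be told apart from the line.

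In NPCs no gene of the 10 was called lower after RAD21 loss either, where 7.4% of all genes were at 1 h, 9.21% at 2 h and 21.1% at 4 h. After 1 h none was called, against 15.7% of all genes in either direction, and DESeq2 called 0. Of all 15860 genes tested, 4559 had an unadjusted p under 0.05. The 1 among the members was Mdp1, at 13.4 and 14.5 CPM in controls and 10.6 and 11.5 after IAA (−0.36 ± 0.13, adjusted p = 0.0800). No member is longer than 46.4 kb, so the 90 kb limit on the counts at this time removed nothing from them.

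After 2 h Tex261 was higher (0.46 ± 0.13, adjusted p = 0.0218), the 1 gene called where 5.35% of all were. Without the second 2 h library Mrm1 (0.37, adjusted p = 0.0321) and Zbtb39 (0.18, adjusted p = 0.0361) were called too. It measured 24.96 and 23.4 CPM in controls, 29.8 and 39.6 after 2 h and 32.0 and 27.9 after 4 h, with no overlap at either time. After 4 h it was at 0.27 ± 0.08 (adjusted p = 0.0031), Zbtb39 at 0.20 ± 0.06 (41.8 and 39.6 CPM to 49.0 and 46.5, adjusted p = 0.00403) and Traf6 at 0.12 ± 0.06 (49.1 and 45.3 to 53.3 and 51.6, adjusted p = 0.0485), 3 of 10 where 18.4% of all genes were called higher. All 3 calls were lost without the first 4 h library (adjusted p = 0.139, 0.0713 and 0.239) and in DESeq2. With all NPC libraries in 1 model Tex261 (0.0692) and Traf6 (0.175) also lost theirs, and Traf6 did so with RLE normalization (0.0507) and without the count filter (0.0755). Those of Zbtb39 (0.0527) and Traf6 (0.390) were also lost without the second control, and that of Traf6 without the second 4 h library (0.0708). Both times share their controls.

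After A-485 the values in NPCs were higher rather than lower, but its direction may have taken part in the choice. Counts are scaled to library size and 29.4% of all genes were at least 1.5-fold lower, so these values are relative to the other genes. By the test 8 of 10 genes were called higher and 0 lower, with Mdp1 and Lrrc59 not called, against 32.4% of all genes called higher and 35.3% called lower. Without the first control 6 were called higher (Fmc1 and Dhrs13 lost) and without the second 5 (Traf6, Aars2 and Gfm1 lost), and without the first A-485 library Lrrc59 was called too. Its tested change, before subtraction, was then a rise, with a value of about 0 after it. Tex261 went from 30.8 and 28.8 CPM to 48.8 and 52.0 (0.63 ± 0.08), Dhrs13 from 13.1 and 17.1 to 25.4 and 19.7 (0.44 ± 0.14), and Mrm1 from 15.004 and 12.8 to 19.8 and 21.1 (0.43 ± 0.12). In each the treated libraries were above both controls.

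Fmc1 at 0.35, Zbtb39 at 0.28, Aars2 at 0.19, Traf6 at 0.18 and Gfm1 at 0.14 had smaller changes in the same direction. Lrrc59, at 278 and 286 CPM in controls and 277 and 308 after A-485, was at −0.07. The median over expressed genes, 0.12 on the log2 scale, had been subtracted, and without this step Lrrc59 is at 0.05. The p-values test the change before this step, so it could not alter whether a gene was called and is no check of that. It can alter the direction under which a call is counted, as for Lrrc59 without the first A-485 library.

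Other genes of the members' pathways were called after AGB1 about as seldom as the 1.49% of all genes called lower. None of 16 other mitochondrial aminoacyl-tRNA synthetases, 7 other genes of mitochondrial rRNA modification, 3 other ATP synthase assembly factors, 17 other early secretory transcripts, 6 other Dhrs genes and 33 other BTB zinc-finger transcripts was called, and their medians ran from −0.04 to 0.08, beside 0.01 over all genes. Of 9 other mitochondrial translation factors, 1 was called lower, Tsfm (−0.43 ± 0.09, adjusted p = 0.00314), which loads EF-Tu and is named here after its values were seen.

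Of 19 other TRAF6 signalling transcripts 1 was called lower after AGB1. It was Tab1, the adaptor that activates the kinase MAP3K7 downstream of TRAF6. Its change was −1.24 ± 0.09 after AGB1 (adjusted p = 3.56e-11), 0.13 after dTAG13 and −2.01 ± 0.10 after both agents (adjusted p = 3.38e-17), and adding dTAG13 to AGB1 lowered it by a further 0.76 (standard error 0.12, adjusted p = 0.000388). It was at −1.80 in CTCF-AID, −1.85 in YF-AA at 2 h and −0.03 after RAD21 loss in the initial experiment. After both agents 2 of these 19 transcripts were called lower, and in the other lists 1 early secretory, 2 BTB zinc-finger and 1 translation factor transcript.

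Some members share their span with other genes. Lxn lies on the opposite strand over 12.8% of Gfm1, and it was at 1.11 in CTCF-AID (adjusted p = 0.116) and 0.44 after AGB1 (adjusted p = 0.193), so the counts of Gfm1 could hold its reads in unstranded libraries, and whether strand was used in counting is not given in the sources used here. A unitary pseudogene, Gm49299, covers 12.55% of Mdp1 on the same strand, and the antisense gene Dhrs13os covers 6.91% of Dhrs13. Eme1 and Gpr182 overlap Lrrc59 and Zbtb39 over 221 and 74 bases. The counts of Mdp1 and Dhrs13 are uncertain to that extent.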

How the data were processed

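EU-seq libraries (60) of mouse mESCs and NPCs were grouped by the titles in the labels. The treatment text of 18 libraries names triptolide, which their titles do not, and the titles were followed. The authors trimmed reads with cutadapt, aligned them to mm10 with BWA and used HTSeq for gene counts. The deposited table holds raw counts of 27665 transcripts in 62 columns, over whole genes or, for NPCs at 1 h and with A-485, over the first 90 kb. SAMtools 1.4, bedtools and deepTools are also in the submitters' processing notes.

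The 10 genes and the pathway lists were chosen with earlier results of these data known. Counts were tested with edgeR 4.0.16 (R 4.3.3) quasi-likelihood F tests, two-sided, with TMM normalization, keeping genes whose mean count exceeded 20 in any group, and p-values were adjusted by Benjamini-Hochberg over all genes tested. A gene was called at adjusted p under 0.05. The median log2 fold change of expressed genes (TPM above 15) was subtracted. Intervals are 95% and use the test's degrees of freedom. CTCF-AID fits had library type as a covariate. CPM are TMM-normalized within a line. The steps were tested on simulated data. Alternatives were DESeq2 1.42.0, RLE normalization, no filter, no centring, the replicate number as a block, other sets of libraries and leaving out each library in turn.

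Total counts were 4027449 to 21898781 per library over whole genes and 13863983 to 17730066 over 90 kb. Same-numbered CTCF-AID libraries deviated together (r of 0.61 to 0.84 over 4 pairs). The values and errors given for this line are from the fit without pairing. With the replicate number as a block, the median change was −1.005. Besides the 10 genes, list genes were named when called with at least a 1.5-fold change after AGB1 and in the same direction in YF-AA cells at 2 h and after both agents, and genes that overlap the 10. Tsfm lies outside this rule. Motifs were searched in RefSeq promoter windows, with no mismatch allowed.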

Additional observations from a re-analysis of the deposited data

Results flagged for a closer look

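The fitted difference between the change after 4 h of dTAG13 in YF-AA cells and that after 4 h of IAA in RAD21-AID mESCs of the initial experiment was past the threshold in 9 of the 10 genes. The genes were chosen as lower after YF-AA depletion, so 1 side of this difference was largely fixed beforehand, and the values are a description that supports nothing. The difference on the log2 scale (YF-AA minus RAD21-AID) was −1.995 for Tex261, −1.95 for Zbtb39, −1.60 for Fmc1, −1.55 for Mdp1, −1.33 for Traf6, −1.33 for Mrm1, −0.84 for Lrrc59, −0.84 for Gfm1 and −0.63 for Aars2. Without the second YF-AA control those of Mdp1 (−1.36) and Fmc1 (−1.29) no longer passed. That of Aars2 did not pass without the second RAD21-AID control (−0.50), the first IAA library (−0.62) or the second YF-AA library at 4 h (−0.57), or in DESeq2. The line and the agent cannot be told apart. Groups held 2 or 12 libraries, so single outlying libraries were not looked for by a test.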

How the results depend on the processing

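Of 1480 values of single genes in the tested comparisons, 1424 kept their direction and side of the threshold (an uncalled value that changed sign counts as kept), 43 lost a call, 13 gained one and 0 reversed. The 1480 include the setting without centring, which leaves p-values unchanged and so could not lose or gain a call. In the described contrasts 309 of 329 moved by less than 1 SD. The count called lower was 6 to 7 after AGB1 and against dTAG13, 6 to 8 after both agents, and 0 after dTAG13 in every setting. The median change after 2 h in YF-AA cells, −0.96, was −1.01 to −0.95 when 1 library was left out (7 of the 9 genes with a value were 1.5-fold lower without the second control, where Mdp1 was not tested), and that after 4 h −0.97 to −0.88. Leaving out 1 library gave 0 to 1 called lower between both agents and AGB1, 0 to 1 higher after RAD21 loss in the initial experiment, 1 to 3 higher in NPCs at 2 h, 0 to 3 at 4 h, 5 to 8 higher and 0 to 1 lower after A-485 (Lrrc59, lower only after the median is subtracted), and 1 to 2 higher between untreated lines. With DESeq2 the counts were 0 between both agents and AGB1, 0 higher in the initial experiment and 0 higher in NPCs at 4 h, and Mdp1 and Fmc1 lost their calls after both agents. With all NPC libraries in 1 model, 2 were higher at 2 h and 1 at 4 h, and without the filter 2 at 2 h. With the replicate block, 2 were higher in NPCs at 2 h, and Fmc1 was also called after AGB1 (−0.76, adjusted p = 0.0450). Same-numbered libraries deviated together only weakly here (r of 0.19 for NPCs at 2 h and 0.04 for AGB1). With the pairing crossed, an alternative chosen after seeing the data, 1 gene was called lower in NPCs at 1 h and 1 higher in the initial experiment. The cause of these differences was not tested. Pairs of libraries and under 100 counts for Mdp1, Fmc1, Mrm1 and Dhrs13 in the ΔN/ΔC line limit what could be detected.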

Other observations

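The mean profile of the 10 genes over the 22 libraries of the CTCF lines (log2 CPM minus the mean of the same line's controls) was set against 12867 other genes. The genes most like it were Pabpc4 (Pearson r of 0.993), Rbm45 (0.990), Dph7 (0.987), Snx19 (0.976) and Saal1 (0.976), with mean log2 values after AGB1 of −0.91, −0.84, −1.80, −1.11 and −1.81. The libraries share controls and depth. Those of CTCF-AID and YF-AA cells took part in the choice of the genes, so part of each likeness, also among the 10, was fixed beforehand. All r given here are a description that supports nothing. Among the 10 genes, Tex261 was most like the mean of the others (0.967), and Dhrs13 least (0.678).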
